A study of Mus musculus with 16 samples.

Results

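The genes examined were 9 that make or handle the protein and lipid parcels around apolipoprotein E: the apolipoproteins Apoe, Apoc1, Apod and Clu, the receptors Lrp1, Lrp8 and Vldlr, and the lipid exporters Abca1 and Abcg1. They were listed by name rather than by a cut-off on measured values, although with earlier results of these data known, and all 9 were found among the 45706 genes of the deposited count table. All 9 also had enough reads to be among the 20116 genes tested. Their level was read in 16 libraries of polyadenylated RNA from ear clips of 8 male C57Bl/6J mice, each sampled at 24 months in 1 ear and again at 30 months in the other. No animal carried an engineered allele or received a treatment according to the sources, and the labels call the first biopsy young and the second old. The animals are of 1 inbred strain and 1 sex, and both biopsies of a mouse come from aged adults. The age of the mouse, the ear taken and the order of the biopsies cannot be told apart.

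Apolipoproteins are the proteins on the surface of lipoprotein particles, which carry cholesterol and other lipids between cells. ABCA1 and ABCG1 export cholesterol and phospholipid from the cell onto such particles, apolipoprotein E then acts as a ligand, and receptors of the low-density lipoprotein (LDL) receptor family, among them LRP1, the very-low-density lipoprotein receptor VLDLR and LRP8 (also called ApoER2), take the particles up. The liver X receptors (LXR), nuclear receptors that sense oxidised cholesterol, switch on Abca1, Abcg1 and Apoe together, and in skin these genes take part in lipid handling by keratinocytes, sebaceous glands, macrophages and fibroblasts.

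Apoe and Apoc1 lie side by side on the minus strand of chromosome 7, with 3448 bases between the end of Apoc1 (chr7:19689481-19692660) and Apoe (chr7:19696109-19699188), in GRCm38 coordinates of the GENCODE M21 annotation. The other members are spread over 6 chromosomes, with Apod at chr16:31296192-31314808, Clu at chr14:65968483-65981547, Lrp1 at chr10:127538161-127621148, Lrp8 at chr4:107802261-107876840, Vldlr at chr19:27216484-27254231, Abca1 at chr4:53030787-53159895 and Abcg1 at chr17:31057675-31117988. In the count table they are listed as ENSMUSG00000002985 (Apoe), ENSMUSG00000040564 (Apoc1), ENSMUSG00000022548 (Apod), ENSMUSG00000022037 (Clu), ENSMUSG00000040249 (Lrp1), ENSMUSG00000028613 (Lrp8), ENSMUSG00000024924 (Vldlr), ENSMUSG00000015243 (Abca1) and ENSMUSG00000024030 (Abcg1). The 250 bases before the transcription start are shown for 3 members from the RefSeq promoter table (GRCm38.p6), in transcript direction. Apoe (chr7:19699189-19699438, minus strand) and Apod (chr16:31314809-31315058, minus strand) are shown because Apod had the highest rank correlation with Apoe among the members, and Abca1 (chr4:53159896-53160145, minus strand) because it is a textbook target of the same nuclear receptors. Capitals mark exact matches to 4 motifs searched on both strands, the TATA box TATAAA, the GC box GGGCGG, the nuclear receptor half-site AGGTCA and the E-box CACGTG.

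Apoe: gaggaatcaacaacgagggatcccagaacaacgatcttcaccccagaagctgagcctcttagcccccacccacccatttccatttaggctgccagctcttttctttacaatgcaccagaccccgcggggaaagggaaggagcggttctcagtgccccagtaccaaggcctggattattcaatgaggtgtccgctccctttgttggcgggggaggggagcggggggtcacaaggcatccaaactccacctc

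Apod: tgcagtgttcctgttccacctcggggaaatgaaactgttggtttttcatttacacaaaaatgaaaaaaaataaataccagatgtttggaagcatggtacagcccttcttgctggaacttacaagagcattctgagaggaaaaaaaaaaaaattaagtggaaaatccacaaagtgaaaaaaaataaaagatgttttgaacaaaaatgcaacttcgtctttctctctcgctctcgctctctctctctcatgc

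Abca1: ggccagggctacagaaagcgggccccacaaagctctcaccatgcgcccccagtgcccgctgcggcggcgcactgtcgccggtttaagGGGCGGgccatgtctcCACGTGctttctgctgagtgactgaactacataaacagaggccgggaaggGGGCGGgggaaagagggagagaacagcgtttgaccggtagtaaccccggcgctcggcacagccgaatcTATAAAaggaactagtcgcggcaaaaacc

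The Apoe and Apod windows shown held none of these motifs, at a GC content of 57.2% and 36.4%. The Abca1 window, with 61.6% GC, held TATAAA starting 29 bases before the transcript, GGGCGG starting 163 and 97 bases before it and CACGTG 147 bases before it. It held no exact AGGTCA. Inexact or paired forms of that half-site were not searched, so whether the window holds a receptor site was not tested. Over all 32851 promoter windows of the same length, 12.4% held TATAAA, 32.7% GGGCGG, 6.02% CACGTG, and 4607 of them held AGGTCA. Of the members, 6 had entries in the table, 11 windows in all, while Apoc1, Clu and Abcg1 had none. Apoe had 2 further windows at start sites inside the gene. The 1 before position 19698621 held TATAAA starting 96 bases before that site. It overlapped the reverse complement TTTATA, starting 100 bases before the site, so the 2 matches form 1 stretch.

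The 16 libraries held 22967222 to 36162431 reads on genes (median 28922265), with overlapping ranges at the 2 ages. The labelled tissue was checked against keratinocyte markers: the summed CPM (read counts scaled to the library's total) of 5 basal markers, among them Krt5 and Krt14, ranged from 7454 to 14988, and those of 5 differentiated markers, among them Krt1 and Krt10, from 10703 to 16525, although filaggrin (Flg) had 11 reads in all. The biopsies also differed in their other tissues. Summed skeletal muscle markers (5 genes) ranged from 524 to 6659 CPM, and second biopsies of mice 29 and 50 stood apart. Mouse 29 had the highest sums of fat cell markers (7 genes, 182 to 1143 CPM at 30 months) and endothelial markers (5 genes, 81.1 to 238 CPM), and mouse 50 those of macrophage (12 genes, 624 to 2443 CPM), fibroblast (9 genes, 2632 to 14380 CPM) and T cell markers (6 genes, 20.5 to 151 CPM). No gene of these lists was at 0 in all libraries. In such whole-tissue RNA, fewer cells of a type and less RNA per cell cannot be told apart.

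Apoe was by far the most abundant member. Per length, as RPKM, that is CPM divided by the summed exon length of the gene in kilobases, the mean level of Apoe over the 16 libraries was 751, which ranked 55 among the 20011 tested genes with a known length. Apoe made up 47.0 to 56.2% of the members' summed RPKM in a library (median 53.7%) and took 0.117 to 0.211% of all reads on genes. Apod followed with 301 RPKM (rank 184) and Apoc1 with 264 RPKM (rank 222). Apoe was above Apod in 16 of 16 libraries, but Apod was above Apoc1 in 9 of 16, so those neighbours did not differ beyond their spread. Clu, the clusterin or apolipoprotein J gene, was clearly lower at 37.4 RPKM.

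The receptors and exporters came below the apolipoproteins. Lrp1 had 21.3 RPKM, Abca1 17.1 RPKM, Vldlr 6.89 RPKM and Abcg1 5.26 RPKM. Each of these stood above the next in 14 to 16 of the 16 libraries, while Clu stood above Lrp1 in 15. Lrp8 was the least abundant member at 0.759 RPKM, rank 16652, and rested on 161 to 360 reads per library, against 33978 to 62947 reads for Apoe. The counting error is therefore small for Apoe and appreciable for Lrp8.

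**Figure D1:**
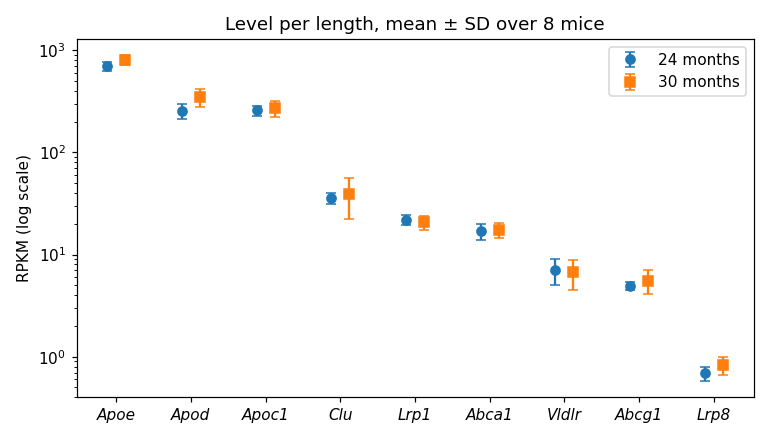
Level per length (RPKM, log axis) of each member, as the mean over 8 mice with bars of ± 1 SD, at 24 months (circles) and 30 months (squares). Apoe lies at 696 ± 71.1 and 805 ± 90.4 RPKM, and the order of the members runs down to Lrp8 at 0.685 ± 0.109 and 0.833 ± 0.170 RPKM.

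The design asks how expression within the same animal differs between 24 and 30 months. Apoe, Apod and Lrp8 were each higher at 30 months in 7 of the 8 mice, by 1.17-fold for Apoe, 1.37-fold for Apod and 1.22-fold for Lrp8, while the mice were split for Apoc1, Clu, Lrp1, Vldlr, Abca1 and Abcg1. No member passed an adjusted p of 0.05 in the edgeR fit (quasi-likelihood F test, mouse and age as terms, Benjamini-Hochberg adjustment over all genes), where 0% of the 20116 genes passed. At an unadjusted p under 0.05, 3 of the 9 members counted as different, all of them higher at 30 months, beside 12.2% of all genes in either direction, 4.83% in the higher and 7.37% in the lower direction. The same 3 were the only members with 1 direction in 7 or 8 of the 8 mice, beside 15.1% of all genes (6.53% higher and 8.59% lower). No member had the same direction in all 8 mice, as 2.89% of all genes did. The fitted log2 fold change was above 0 for 7 members and for 52.1% of all genes, with a median of 0.09 over the members and 0.01 over all genes. With DESeq2's Wald test on the same counts and the same mouse term, 241 of the 20116 genes passed the adjusted threshold, and Apod was the only member among them.

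**Figure D2:**
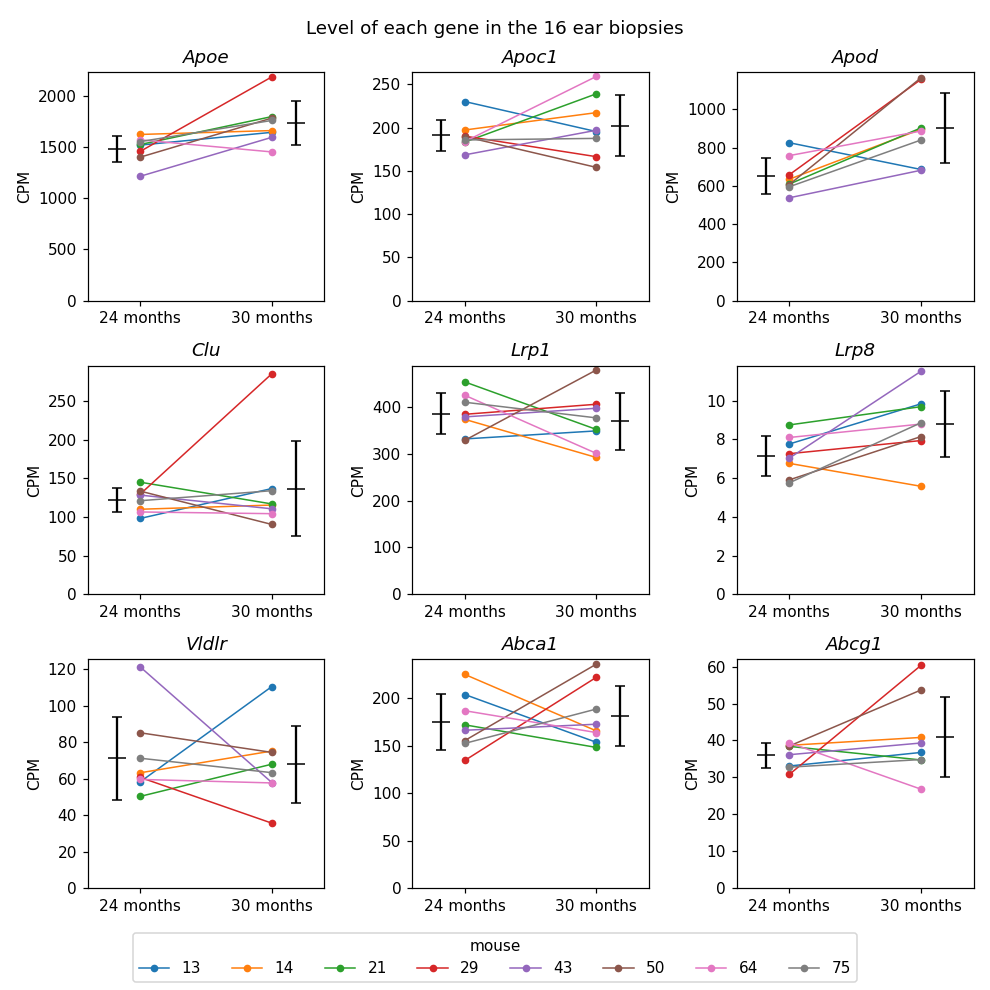
CPM of each member (vertical axes, all from 0) at 24 and 30 months, with 1 line per mouse and the mean ± 1 SD over 8 mice beside each age. For Apoe and Apod, 6 of the 8 mice at 30 months lie above every mouse at 24 months, and mouse 29 stands apart for Apoe and Clu.

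Apoe had 1213 CPM in the lowest, 1520 at the median and 1621 in the highest of the 8 first biopsies, and 1450, 1708 and 2183 CPM in the second biopsies. The ranges overlapped, but 6 of the 8 values at 30 months exceeded every value at 24 months. The mean was 1481 ± 128 CPM (SD, n = 8) at 24 months and 1732 ± 215 CPM at 30 months, a log2 fold change of 0.22 (SE 0.091; edgeR adjusted p = 0.367, unadjusted 0.0336). Within mice the log2 difference ran from -0.11 in mouse 64, the only mouse with less Apoe at the later age, to 0.58 in mouse 29. Without mice 29 and 50, a pair left out after the data were seen, the log2 fold change of Apoe was 0.14 (edgeR adjusted p = 0.661).

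Apod encodes a lipocalin that binds small lipids such as arachidonic acid and, despite its name, is unrelated in structure to the apolipoproteins encoded by Apoe and Apoc1. It had 538 CPM in the lowest, 622 at the median and 826 in the highest first biopsy, and 682, 891 and 1165 CPM in the second biopsies. As for Apoe, 6 second biopsies exceeded all first biopsies, and mouse 13 was the only one to go the other way, with a log2 difference of -0.27. The difference was greatest in mice 50 and 29, at 0.94 and 0.81. The mean went from 653 ± 94.0 to 902 ± 183 CPM (SD, n = 8), with a log2 fold change of 0.45 (SE 0.12), an edgeR adjusted p of 0.249 (unadjusted 0.00398) and a DESeq2 adjusted p of 0.0213. The log2 fold change was 0.31 without mice 29 and 50 (edgeR adjusted p = 0.461), a value that is lower by construction since their differences were the greatest.

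Apoc1, the neighbour of Apoe, encodes a small apolipoprotein that inhibits lipoprotein lipase and the receptor uptake of particles. Its level was 168 CPM at the lowest, 188 at the median and 230 at the highest in first biopsies, against 154, 196 and 259 CPM in second biopsies. The later range enclosed the earlier one, and 5 mice were higher at 30 months and 3 lower. The log2 fold change was 0.07 (SE 0.097; edgeR adjusted p = 0.794). Mice 29 and 50, which had the greatest Apod differences, had less Apoc1 at the later age, with log2 differences of -0.19 and -0.30.

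Clu encodes a secreted chaperone that also travels on lipoproteins. It ranged from 98.1 CPM over a median of 125 to 145 CPM in first biopsies and from 90.3 over 116 to 285 CPM in second biopsies. The highest value belonged to mouse 29 and the next was 137 CPM, so the later group was wide because of 1 animal. The log2 fold change was 0.09 (SE 0.16; edgeR adjusted p = 0.840), with 4 mice higher and 4 lower, and it was -0.060 without mouse 29.

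Of the receptors, Lrp8 transmits the reelin signal in neurons and binds apolipoprotein E. Its level was 5.76 CPM in the lowest, 7.15 at the median and 8.75 in the highest first biopsy, and 5.58, 8.83 and 11.5 CPM in the second biopsies. The groups overlapped, and mouse 14 alone was lower at 30 months, with a log2 difference of -0.27, while mouse 43 had the greatest difference at 0.71. The log2 fold change was 0.28 (SE 0.12; edgeR adjusted p = 0.370, unadjusted 0.0346). The antisense transcripts Lrp8os1 and Lrp8os2 had 5 and 19 reads in all 16 libraries.

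Lrp1, a large endocytic receptor for many ligands, ranged from 329 CPM over a median of 382 to 453 CPM in first biopsies and from 292 over 364 to 479 CPM in second biopsies. The 8 mice were split 4 to 4, from a log2 difference of -0.50 in mouse 64 to 0.54 in mouse 50, and the log2 fold change was -0.07 (SE 0.11; edgeR adjusted p = 0.801). Without mice 29 and 50 it was -0.20, and that of Lrp8 0.28.

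Vldlr, the receptor that takes up triglyceride-rich particles in muscle, heart and fat, had the largest SE of the members. It went from 50.3 CPM over a median of 62.0 to 121 CPM in first biopsies and from 35.6 over 65.6 to 111 CPM in second biopsies. No direction prevailed, with 3 mice higher and 5 lower and a log2 fold change of -0.08 (SE 0.19; edgeR adjusted p = 0.881), which was 0.062 without mouse 43. The log2 difference was 0.92 in mouse 13 and -1.07 in mouse 43, the same mice that had the extremes of the summed skeletal muscle markers, whose log2 differences were 3.29 and -3.08. Over the 16 libraries, the Spearman correlation of Vldlr with the muscle marker sum was 0.79, as a description over libraries that share mice; the part of muscle in the Vldlr values was not tested.

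The exporters did not show a direction shared by the mice. Abca1 ranged from 134 CPM over a median of 169 to 225 CPM at 24 months and from 148 over 169 to 236 CPM at 30 months, with 4 mice higher, 4 lower and a log2 fold change of 0.05 (SE 0.14; edgeR adjusted p = 0.891). Abcg1 ranged from 30.8 CPM over 37.3 to 39.4 CPM and then from 26.8 over 38.0 to 60.3 CPM. Its second biopsies were thus more spread on both sides, with 6 mice higher and 2 lower, and the log2 fold change was 0.15 (SE 0.14; edgeR adjusted p = 0.667). In both genes mice 29 and 50 had the greatest differences in the higher direction, with log2 values of 0.72 and 0.60 for Abca1 and 0.97 and 0.48 for Abcg1. Without these 2 mice, left out after the data were seen, the log2 fold changes were -0.15 for Abca1 and -0.041 for Abcg1, opposite in sign to those over all 8. Leaving out the greatest differences lowers the value by construction, so the change of sign shows only how much these 2 mice weigh.

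**Figure D3:**
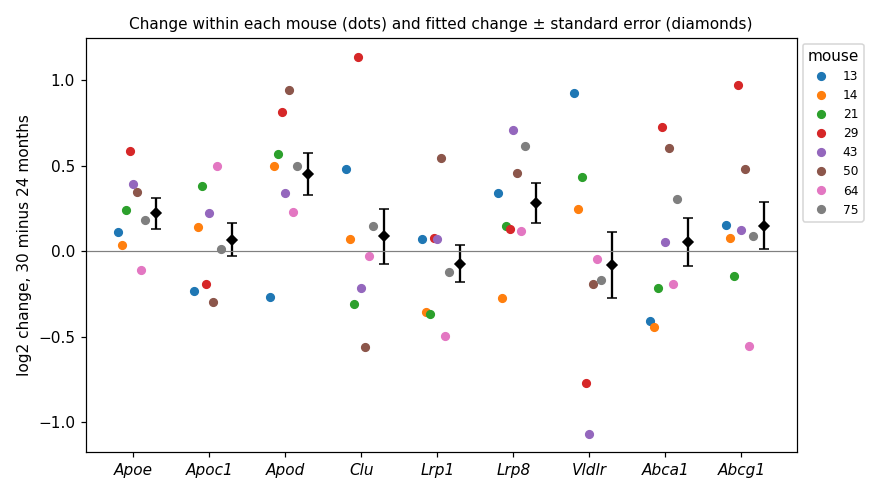
Log2 difference between 30 and 24 months (vertical axis) of each member, with 1 dot per mouse and the fitted log2 fold change ± its standard error as a diamond. Apoe, Apod and Lrp8 have 7 of 8 dots above 0, and mouse 29 has the highest dot for Apoe, Clu, Abca1 and Abcg1.

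Whether the differences of the other members ran parallel to that of Apoe was read from the 8 within-mouse differences. Abcg1 came closest, with Pearson r = 0.85 (exact permutation p = 0.0095, two-sided) and Spearman rho = 0.71 (exact permutation p = 0.0576), followed by Abca1 with r = 0.76 (exact permutation p = 0.0306) and rho = 0.71 (exact permutation p = 0.0576). Over the 8 relations computed, the adjusted values from the exact permutation tests were 0.0760 for the r of Abcg1, 0.122 for that of Abca1 and 0.166 for both rho, so none passed. Leaving out mice 29 and 64, the farthest from the median Apoe difference, r was 0.34 for Abcg1 (exact permutation p = 0.539) and 0.69 for Abca1 (exact permutation p = 0.135). That leaves 6 mice and, by construction, a narrower range of Apoe differences; with mouse 29 or mouse 64 alone left out, the rho of Abcg1 was 0.57 each time. Vldlr ran opposite to Apoe with r = -0.61 and rho = -0.69, adjusted exact permutation p = 0.202 and 0.166. Apod differed in the same direction as Apoe in 6 of 8 mice (r = 0.56, rho = 0.57; adjusted exact permutation p = 0.232 and 0.242). The r of the other members was 0.65 for Lrp1, 0.36 for Lrp8, 0.29 for Clu and -0.51 for Apoc1, the rho 0.67, 0.50, -0.05 and -0.36, and the adjusted values from the exact permutation tests 0.202, 0.431, 0.482 and 0.268 for r and 0.166, 0.288, 0.935 and 0.445 for rho.

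**Figure D4:**
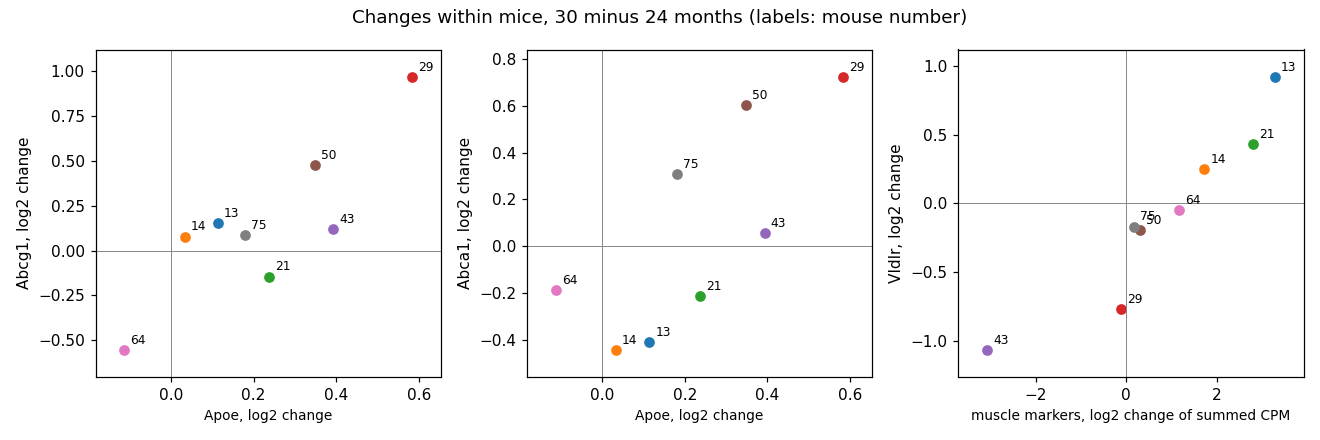
Log2 differences between 30 and 24 months within each mouse, 1 dot per numbered mouse: Abcg1 against Apoe, Abca1 against Apoe, and Vldlr against the summed CPM of 5 skeletal muscle markers, a pair chosen after its values were seen. Mice 29 and 64 lie at the ends of the first panel, and mice 13 and 43 at the ends of the third.

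The libraries can also be ordered by level, as a description over 16 libraries that come in pairs from 8 mice. Among the members, the Spearman correlation was 0.72 between Apoe and Apod, 0.60 between Abca1 and Abcg1, 0.51 between Apoe and Abcg1, and -0.09 between the neighbours Apoe and Apoc1. Of all tested genes, those most like Apoe were Lgals9, a galectin, with a rho of 0.97, Slc8b1, a mitochondrial sodium and calcium exchanger, with 0.90, 2210016L21Rik with 0.88, Sele, the endothelial adhesion molecule E-selectin, with 0.88, and Lfng, a glycosyltransferase that acts on Notch receptors, with 0.86. Against marker sums, Apoe gave 0.63 for endothelial markers, 0.25 for fat cell markers and 0.23 for macrophage markers, and Apod 0.50, 0.46 and 0.59. Cartilage markers ran opposite to both, with a rho of -0.58 for Apoe and -0.71 for Apod, the largest in size of the 12 marker sums for Apod. Their sum ranged from 141 to 223 CPM at 24 months and from 117 to 164 CPM at 30 months (6 genes; 5 tested, 5 lower and 3 of them at an unadjusted p under 0.05), and its within-mouse difference had the sign opposite to that of Apoe in 8 of 8 mice. Over all genes 7.37% were lower at that p, and the cartilage count was 1 without mouse 21 or mouse 29. The endothelial sum was higher at 30 months in 6 of the 8 mice, by a log2 difference of 1.44 in mouse 29, the animal with the highest Apoe. The part of these cell types, cartilage included, in the Apoe and Apod values was not tested.

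The wider pathway was followed in 7 lists of other genes, 79 in all, of which 66 were tested. None passed the adjusted threshold in edgeR, where 0% of all genes passed, and 5 were higher and 3 lower at an unadjusted p under 0.05, which is 12.1% of the tested list genes beside 12.2% of all genes. Of the other apolipoproteins 6 of 15 were tested, 5 higher and 1 lower, with a median log2 fold change of 0.46. With DESeq2's Wald test, 2 of these 6 passed the adjusted threshold, both higher, where 241 of 20116 genes passed. The liver and intestinal apolipoprotein genes were nearly silent in the ear: Apoa1 had 50 reads in all 16 libraries, Apob 23, Apoa4 2 and Apoa5 0. Apol9a and Apol9b, interferon-induced genes, had the smallest p among them. Apol9a had 5.87 ± 3.69 CPM at 24 and 11.7 ± 8.31 CPM at 30 months (SD, n = 8), a log2 fold change of 0.99 (SE 0.21; edgeR adjusted p = 0.198), and Apol9b had 3.84 ± 2.92 and 8.38 ± 8.20 CPM (SE of the log2 fold change 0.26; edgeR adjusted p = 0.226). Each was higher in 8 of 8 mice. These 2 genes are nearly identical copies, so the split of reads between them is uncertain. Apoc2, the activator of lipoprotein lipase, was next, at a low level of 0.455 ± 0.131 CPM at 24 and 0.706 ± 0.481 CPM at 30 months. It was higher in 4 mice and lower in 4 (edgeR adjusted p = 0.562).

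Of the other LDL receptor family, 9 of 11 were tested, 4 higher and 5 lower, with a median log2 fold change of -0.03. Lrp6, a co-receptor for Wnt ligands, was lower at 30 months in 8 of 8 mice, at 121 ± 5.96 and 110 ± 7.81 CPM (log2 fold change -0.14, SE 0.048; edgeR adjusted p = 0.320), and Lrp4 and Lrp5 had log2 fold changes of -0.18 and -0.17. Of the receptor ligands and partners, 5 were higher and 5 lower, with a median of -0.001 whose sign varied with the mouse left out. Sdc1, the heparan sulphate proteoglycan syndecan-1 that helps take up remnants, had a log2 fold change of -0.23 (edgeR adjusted p = 0.332) and was lower in 7 of 8 mice. Hspg2, another proteoglycan, had -0.13, and Reln, which encodes the LRP8 and VLDLR ligand reelin, 0.17.

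In the LXR pathway list 8 of 11 genes were higher and 3 lower, with a median log2 fold change of 0.07. In edgeR, 1 of the 11 was higher at an unadjusted p under 0.05 and none lower, beside 4.83% and 7.37% of all genes. The summed CPM of the list was higher at 30 months in 4 of the 8 mice. The 3 genes named here are those of smallest p in the list. Nr1h2, which encodes LXR beta, had 122 ± 7.10 CPM at 24 and 139 ± 9.46 CPM at 30 months and was higher in 8 of 8 mice (log2 fold change 0.18, SE 0.053; edgeR adjusted p = 0.272). Smpdl3a and Arl4c, targets of LXR, had 0.31 and 0.17, with Smpdl3a higher in 7 mice and Arl4c in 5. Their edgeR adjusted p was 0.410 and 0.420 (unadjusted 0.0501 and 0.0554). Of the other sterol transport genes 13 of 15 were tested, 7 higher and 6 lower (median 0.04, and -0.035 without mouse 43, with 5 higher and 8 lower). Scarb1, the receptor for high-density lipoprotein, had 36.7 ± 3.07 CPM at 24 and 60.1 ± 37.0 CPM at 30 months. Its values at 30 months ran from 32.7 to 141 CPM, with 6 mice higher and 2 lower. The log2 fold change was 0.52 (SE 0.24, edgeR adjusted p = 0.421). The transporters Abcg4 and Abca5 had -0.29 and -0.26, lower in 7 and 5 mice.

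The lipoprotein remodelling list had 5 genes higher and 3 lower, with a median log2 fold change of 0.20. Without mouse 29 that median was 0.0083, with 4 genes higher and 4 lower. Lpl, which encodes the lipase that breaks down the triglycerides of particles, had 127 ± 27.1 and 165 ± 43.4 CPM. Its log2 fold change was 0.37 (SE 0.16, edgeR adjusted p = 0.404). Gpihbp1, which anchors that lipase to capillary endothelium, had 2.93 ± 1.39 and 7.89 ± 9.63 CPM, with 2.45 to 31.45 CPM at 30 months. Its log2 fold change was 1.01 (SE 0.42, edgeR adjusted p = 0.374). Both were higher in 7 of 8 mice. Lcat, whose enzyme esterifies cholesterol on particles, had -0.40. Of the 9 genes of lipid-handling phagocytes, 7 were higher and 2 lower (median 0.10) with none at an unadjusted p under 0.05, and the median without mouse 13 was 0.24. The list was led by Gpnmb at 0.31, Spp1 at 0.24 and Cd63 at 0.16. Macrophage markers, as a list, had 11 of 12 genes higher and 1 lower, with none at an unadjusted p under 0.05. Without mouse 13 all 12 were higher, 5 of them at that p, where 1000 of 20075 genes were. Without mouse 50, 9 were higher and 3 lower, with none at that p. Endothelial markers had 5 of 5 higher with all mice, 3 of them at an unadjusted p under 0.05. Over all genes 4.83% were higher at that p. The endothelial count varied with the mouse left out, from 2 without mouse 13, 21, 29 or 50 to 5 without mouse 43. The part of these cells in the list values was not tested.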

How the data were processed

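Total RNA of ear clips was sequenced as 50 nt single-end reads after polyA selection. Per the labels, the authors' processing notes name CASAVA 1.8.4, TopHat2 2.1.0, HTSeq 0.6.1p1 and mm10, and the deposited values are raw read counts per Ensembl gene; whether strand was used in counting is not given in the sources used here. The 5 summary lines of the counter (18.7 to 21.1% of reads) were left out. Of the 45706 genes, 45143 had a GENCODE M21 symbol, and the rest held 0.130% of counts.

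Counts were filtered by edgeR's filterByExpr on the age groups, scaled by TMM and fitted in edgeR 4.0.16 (R 4.3.3) with terms for mouse and age, with Benjamini-Hochberg adjustment over 20116 genes and a threshold of 0.05. The SE is the absolute log2 fold change over the root of F. CPM are TMM-scaled, and RPKM use the total reads on genes and summed exon length. Log2 differences within mice used a prior count of 2. Relations over mice used exact permutation tests (scipy 1.17.1). On simulated data of 19988 genes, 198 of them changed 2-fold, 180 were called, all in the right direction, along with 5 unchanged genes. The simulated libraries held no differences between mice or in tissue make-up. They do not tell how often differences as small as those of the members would be called. Biopsies were paired because the same number in the titles marks the same animal. The deviations of same-mouse libraries from their age means had a median correlation of -0.0256 over 8 pairs (range -0.446 to 0.253). For libraries of different mice the median was -0.0044, so by this measure same-mouse libraries were not more alike. The pairing thus rests on the titles. The alternatives were other normalizations, DESeq2 1.42.0, no low-count filter, no pairing, exact ages (23.8 to 24.4 and 29.0 to 30.1 months) and leaving out mice.

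The members and gene lists were chosen with earlier results of these data known. All 9 members are named, with the 3 genes of smallest unadjusted p in each of the 7 other lists and the 5 genes most like Apoe (2 for each other member) by Spearman correlation of log2 CPM; other genes with read totals or marker values are named from the same lists.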

Additional observations from a re-analysis of the deposited data

Results flagged for a closer look

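The 8 mice of each age, and the 8 within-mouse differences, were searched for an animal that stood far from the rest by Dixon's criterion, over 27 groups of 8 values. In 3 groups there was such an animal, where 1.35 would be expected by chance since about 1 in 20 groups meets the criterion. Apoe at 30 months was highest in mouse 29 at 2183 CPM, with the next mouse at 1795 CPM. Clu at 30 months was also highest in mouse 29, at 285 CPM against 137 CPM in the next. Apoc1 at 24 months was highest in mouse 13 at 230 CPM, with the next at 197 CPM. The second biopsy of mouse 29 also had the highest fat cell and endothelial marker sums, 1143 and 238 CPM, and their part in these values was not tested.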

How the results depend on the processing

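With DESeq2's Wald test and the mouse as a term, 241 of 20116 genes (79 higher, 162 lower) and 1 member passed the adjusted threshold, Apod with a log2 fold change of 0.46 (DESeq2 adjusted p = 0.0213). Of the other apolipoproteins, 2 of the 6 tested passed as well, both higher, and no gene of the remaining pathway lists passed. Without the pairing of biopsies by mouse, 4 genes (2 higher, 2 lower) and no member passed in edgeR; the pairing changed no call of a member or of a list gene. Under the 6 alternatives that kept all mice, every member kept its direction, and the edgeR or DESeq2 adjusted p ranged from 0.160 to 0.501 for Apoe, 0.0213 to 0.284 for Apod and 0.273 to 0.553 for Lrp8. Leaving out 1 mouse at a time, the log2 fold change stayed between 0.17 and 0.27 for Apoe, 0.38 and 0.55 for Apod and 0.22 and 0.36 for Lrp8. The sign changed in this series of fits for Clu (-0.060 to 0.18), Vldlr (-0.22 to 0.062) and Abca1 (-0.043 to 0.12): without mouse 29 they had -0.060, 0.020 and -0.043, without mouse 43 Vldlr had 0.062, and without mouse 50 Abca1 had -0.026. The count of members at an unadjusted p under 0.05 ranged from 1 to 3, being 1 without mouse 43, 50 or 75, and that of list genes from 6 to 13, being 13 without mouse 43, where the count over all genes was also higher (3597 of 20152, against 2454 of 20116 with all mice). With 1 mouse left out, the median log2 fold change ranged from 0.31 to 0.66 in the other apolipoproteins, -0.10 to -0.00055 in the other LDL receptor family, -0.061 to 0.016 in the receptor ligands and partners, 0.044 to 0.14 in the LXR pathway, -0.035 to 0.091 in other sterol transport, 0.0083 to 0.34 in lipoprotein remodelling and 0.074 to 0.24 in the lipid-handling phagocyte list. The rho between Clu and Apoe ranged from -0.57 to 0.11. Without mice 29 and 50 together, chosen after seeing the data, 1 member had an unadjusted p under 0.05, and Vldlr, Abca1 and Abcg1 changed sign to 0.058, -0.15 and -0.041. Over mice left out, the edgeR adjusted p was 0.309 to 0.661 for Apoe, 0.162 to 0.508 for Apod and 0.340 to 0.612 for Lrp8. The causes were not tested. Lrp8, at 161 to 360 reads per library, is the member whose differences depth limits most.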

Other observations

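For the other members, the 2 genes most like each over the 16 libraries were named by the same rule as for Apoe, as a description of libraries that share mice. Vldlr was most like Chrne, which encodes the epsilon subunit of the muscle acetylcholine receptor (rho 0.96), and Limch1 (0.95). Apod was most like Plekha3 (0.90) and Gm11951 (0.89), Apoc1 like Gm7805 and Gins1, a subunit of the DNA replication complex GINS (both 0.92), and Clu like Ankmy1 and Cnnm3 (both 0.86). Lrp1 was most like Svep1, an extracellular matrix gene (0.89), and Igf2bp2 (0.88), and Lrp8 like Pan2, a deadenylase subunit (0.92), and Top3a, a topoisomerase (0.87). Abca1 was most like AI839979 and Inpp5d, a phosphatase of blood cells (both 0.82), and Abcg1 like Lpp (0.79) and 4931413K12Rik (0.78). Gm7805, Ankmy1 and 4931413K12Rik had low mean levels of 0.473, 0.660 and 0.808 CPM. Each gene was picked as the highest among all tested genes with a symbol, so a high rho follows in part from the search. Among the members, the lowest correlation was that of Apoc1 with Lrp1, at -0.78. Clu had its highest correlation with a marker sum for Schwann cells, at 0.69.

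Among the apolipoprotein genes that had too few reads to be tested, Apoc3 had 226 reads over the 16 libraries, of which 195 came from 1 library; it was singled out after its values were seen.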
